A study of Homo sapiens with 17 samples.

Results

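The genes described here code for 10 enzymes of androgen and steroid metabolism: STS, SULT2B1, AKR1C3, HSD17B4, HSD17B11, HSD17B12, SRD5A1, SRD5A3, UGT2B15 and UGT2B17. A region belonged to one of them when the deposited table marked it as overlapping an exon or intron of that gene, with or without its promoter. By this rule 128 of 326944 listed regions were members, 87 of them on an exon and 41 in an intron. The table of HPr1AR held 50 of its 139373 regions, that of LNCaP 45 of 110260 and that of 22Rv1 33 of 77311. Each table listed 8 of the 10 genes. UGT2B15 and UGT2B17 were missing from HPr1AR, UGT2B15 and AKR1C3 from LNCaP, and UGT2B17 and SULT2B1 from 22Rv1. A missing gene had no region in the table, which does not show that its RNA was absent or unmethylated.

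RNA fragments carrying N6-methyladenosine (m6A), a methylated base of messenger RNA, were enriched with an m6A antibody and sequenced, and IgG pull-downs were sequenced as the background. The cells were HPr1AR, a non-malignant prostate epithelial line, and the prostate cancer lines LNCaP and 22Rv1, all labelled as wild type and vehicle-treated and grown to 70% confluence. The labels give 3 m6A and 3 IgG samples each for HPr1AR and LNCaP, and 2 m6A and 3 IgG samples for 22Rv1. HPr1AR grew in serum-free keratinocyte medium and both cancer lines in medium with 10% serum, so medium and line cannot be told apart. Each table gives 1 comparison per region and nothing by sample, and the variation among samples could therefore not be measured.

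Prostate cells can make active androgens from circulating precursors. Sulfated precursors are freed by a sulfatase, and 17β-hydroxysteroid dehydrogenases and AKR1C3 carry out reductions among the steps on the way to testosterone. Testosterone is converted by 5α-reductases to dihydrotestosterone, the most potent natural androgen. Other 17β-hydroxysteroid dehydrogenases oxidise androgens back, and sulfotransferases and UDP-glucuronosyltransferases attach the groups with which steroids are inactivated and cleared. In messenger RNA, m6A is laid down mostly around stop codons and in long exons, typically within a GGACT-like sequence.

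Whole reads of the 2 pull-downs were rebuilt from the deposited fold and p-value of each region, as described under the processing, and refer to 1 window of 20 bp that represents the region. The numerator is taken to be the m6A pull-down and the reference the IgG pull-down, which the headers do not state. The rebuilt depths of HPr1AR were 5.13 M reads for the numerator and 11.7 M for the reference. Those of LNCaP were 3.93 M and 8.88 M, and those of 22Rv1 3.30 M and 4.82 M. Reads are given below as numerator against reference, and the read ratio is the log2 of their quotient after division by these depths. A region was called higher or lower when an exact two-sided binomial test, adjusted by Benjamini-Hochberg over all regions of its table, gave an adjusted p under 0.05. These p-values and the 95% Clopper-Pearson intervals cover counting error only. They take the representative window as given and make no allowance for its choice among the windows of a region. A count of 0 was set to 3 reads for the ratio, which is then a lower or upper bound. For 6 of the 128 regions only the smallest reads that fit the deposited p-value could be given, and their values are written as at least.

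All 8 markers of basal prostate epithelium had a region in HPr1AR, and 2 of 8 had one in each cancer line. Of 8 luminal markers, LNCaP and 22Rv1 listed all, while KLK3, KLK2, FOLH1 and TMPRSS2 were missing from HPr1AR, which listed the other 4. Of 5 stromal markers only COL1A1 was listed, in each line, and of the blood cell markers PTPRC and CD3E were listed in none.

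The m6A pull-down was higher than the IgG pull-down in 43 member regions and lower in none. In HPr1AR 15 of 50 member regions were called higher, beside 38.0% of all regions of that table. In LNCaP 16 of 45 were called, beside 37.9%, and 2 more were undetermined. In 22Rv1 12 of 33 were called, beside 54.3%. The shares of all regions called lower were 0.0911%, 0.101% and 0.75%. At least 1 higher region was found for 6 of the 8 listed genes (HPr1AR), 7 of 8 (LNCaP) and 7 of 8 (22Rv1), beside 92.4%, 90.2% and 90.4% of all listed genes. Member regions had median read ratios of 1.19 (HPr1AR), 1.46 (LNCaP) and 1.03 (22Rv1), against 1.21, 1.22 and 2.05 over all regions. Of the member regions, 23 of 50, 25 of 45 and 12 of 33 lay above the median of their table. Set against the median of all regions in place of the depths, 9 member regions were higher and 5 lower in HPr1AR, beside 21.3% and 6.98% of all regions. In LNCaP 8 were higher and 8 lower, beside 21.5% and 7.76%. In 22Rv1 3 were higher, all in STS and SRD5A3, and 7 lower, beside 15.0% and 15.9%. Over all regions this centring took the higher share of the calls from 99.8% to 75.4% in HPr1AR, from 99.7% to 73.5% in LNCaP and from 98.6% to 48.5% in 22Rv1.

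The genes differed in where their called regions lay. STS and SRD5A3 each had a strongly enriched region in every line. SRD5A1 had the same exon and intron called in every line, on fewer reads in 22Rv1 than in HPr1AR. HSD17B12 had an enriched intron in every line, and HSD17B4 had 35 regions with 2 calls. HSD17B11 and SULT2B1 had a call in some lines only. The plot of all member regions shows this order.

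**Figure D1:**
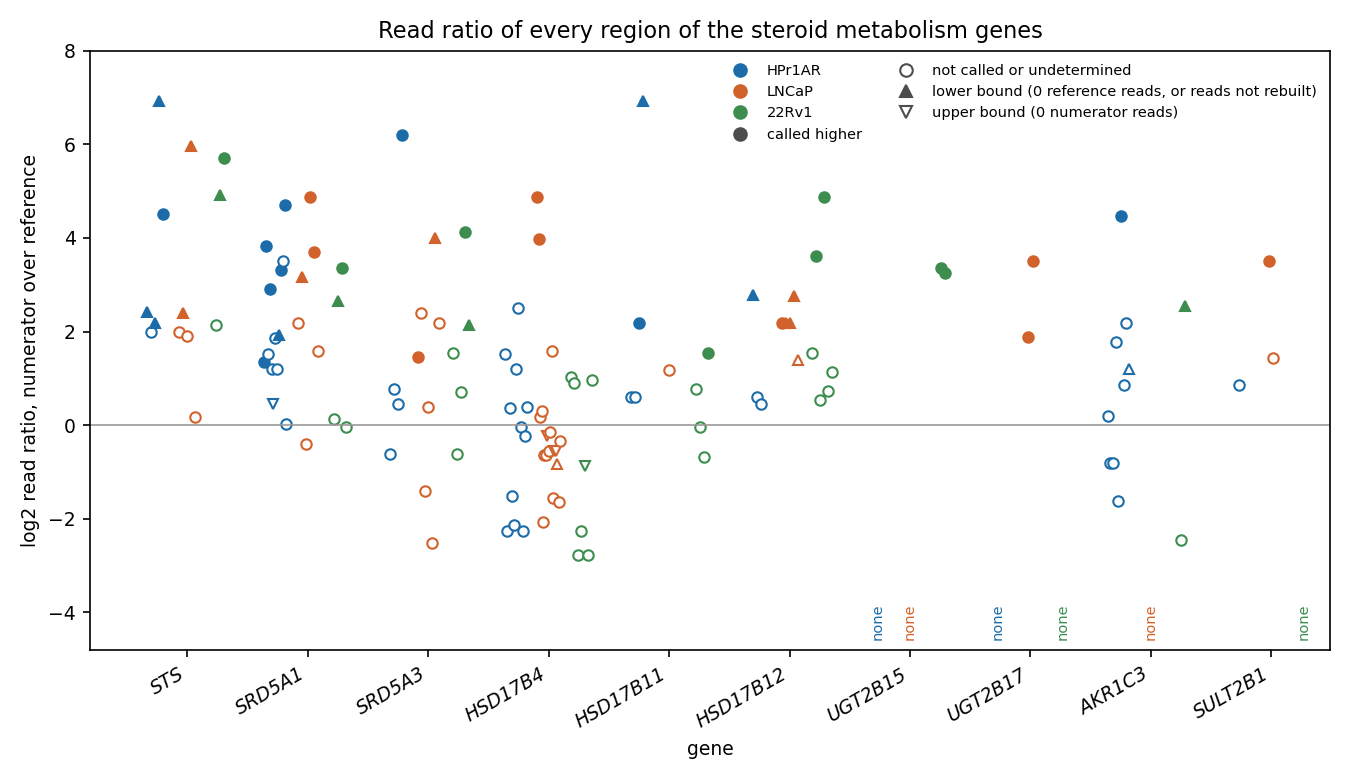
Log2 read ratio (y axis) of each of the 128 member regions, by gene (x axis) and line (colour), with regions of a gene ordered by position; filled symbols were called higher, triangles are bounds, and "none" marks a gene with no region in that table. The highest points are STS and HSD17B11 in HPr1AR, both at least 6.92, while most points of HSD17B4 lie near or below 0.

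Positions are those of the deposited tables. The submitters' processing notes name hg38, but only 44 of the 128 member regions touched the span of their gene in RefSeq GRCh38, so the build of the positions is not given in the sources used here and no sequence was read by these coordinates. In 20 member regions another gene was named as well, and counts there cannot be assigned to 1 of them.

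The sequences around 4 annotated transcript starts are shown. Each of these genes had a called region over both its promoter and first exon in at least 1 line. STS, SRD5A1, HSD17B12 and UGT2B17 also had such a call, and their starts are not shown. The 4 therefore do not stand for all members with a called promoter and first exon region. They were taken by gene symbol from a RefSeq promoter table of GRCh38.p14, in which 8 of the 10 genes were matched, and run from 250 bases before the start to 50 after it, 5′ to 3′ on the gene's strand. Capitals mark the 50 bases from the start onward, the part that is transcribed.
HSD17B11, chr4:87391139-87391438 (- strand): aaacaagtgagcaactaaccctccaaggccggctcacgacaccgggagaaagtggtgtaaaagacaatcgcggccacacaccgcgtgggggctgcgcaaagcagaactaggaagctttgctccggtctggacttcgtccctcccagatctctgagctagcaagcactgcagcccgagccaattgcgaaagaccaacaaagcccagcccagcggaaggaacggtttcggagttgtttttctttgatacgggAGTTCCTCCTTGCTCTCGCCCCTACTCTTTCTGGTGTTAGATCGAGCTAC
HSD17B4, chr5:119452247-119452546 (+ strand): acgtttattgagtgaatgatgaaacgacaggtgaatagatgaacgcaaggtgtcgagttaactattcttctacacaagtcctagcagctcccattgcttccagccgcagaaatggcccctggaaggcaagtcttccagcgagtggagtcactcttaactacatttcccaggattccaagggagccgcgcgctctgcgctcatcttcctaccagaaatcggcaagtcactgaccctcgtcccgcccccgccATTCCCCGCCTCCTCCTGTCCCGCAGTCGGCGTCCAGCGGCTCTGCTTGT
SRD5A3, chr4:55345992-55346291 (+ strand): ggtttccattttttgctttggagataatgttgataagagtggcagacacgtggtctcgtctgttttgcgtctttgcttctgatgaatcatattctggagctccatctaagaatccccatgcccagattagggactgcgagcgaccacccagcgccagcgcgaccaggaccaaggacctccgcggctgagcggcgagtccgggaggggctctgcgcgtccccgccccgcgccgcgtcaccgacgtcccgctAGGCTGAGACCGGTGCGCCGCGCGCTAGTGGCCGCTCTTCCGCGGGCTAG
UGT2B15, chr4:68670603-68670902 (- strand): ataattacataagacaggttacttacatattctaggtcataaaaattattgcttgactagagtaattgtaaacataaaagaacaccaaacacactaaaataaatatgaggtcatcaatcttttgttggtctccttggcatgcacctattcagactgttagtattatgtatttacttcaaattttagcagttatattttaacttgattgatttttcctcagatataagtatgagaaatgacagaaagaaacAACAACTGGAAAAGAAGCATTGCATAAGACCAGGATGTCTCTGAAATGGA
The motif GGACT was absent from the 50 transcribed bases of all 4, beside 4.9% of 35116 RefSeq promoters that held it there. Within the whole 300 bases, counting both strands, it stood once in HSD17B11, once in HSD17B4 and at 2 places in SRD5A3, and 44.2% of all promoters held it. UGT2B15 had none and was the most AT-rich of the 4, with a GC content of 30.3% against 62.0% in SRD5A3. These matches describe letters in the reference and not sites in these cells.

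STS, the steroid sulfatase that frees dehydroepiandrosterone and oestrone from their sulfates, had the highest listed ratio of the 10 genes in LNCaP and 22Rv1. In HPr1AR it and HSD17B11 had the same value, set in both by the smallest reads that fit the deposited p-value. Several of these ratios are bounds, so they do not rank the genes. The signal of STS lay in 1 stretch of exon at the downstream end of its listed regions, chrX:7267941-7270500. In HPr1AR the first region there had at least 53 reads against 1 and the second 20 against 2. LNCaP had a single wide region with at least 55 reads against 2. In 22Rv1 the corresponding regions had 62 reads against 0 and 36 against 1. Scaled by depth to counts per M reads (CPM), the strongest of these stood at no less than 10.3 CPM in HPr1AR, no less than 13.99 CPM in LNCaP and 18.8 CPM in 22Rv1, while the reference rates were 0.0854, 0.225 and 0 CPM. The read ratios were at least 6.92 in HPr1AR (adjusted p = 6.34e-24), at least 5.96 in LNCaP (8.53e-24) and at least 4.92 in 22Rv1 (3.60e-21), by the exact binomial test with Benjamini-Hochberg adjustment. The order of these bounds is no order of the lines, since each is set by the few or absent reference reads.

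Away from this exon the STS counts were small. The exon at chrX:7177431-7177810 had 7 reads against 4 in HPr1AR, 7 against 0 in LNCaP and 9 against 3 in 22Rv1, and only the LNCaP region was called. An exon at chrX:7243421-7243530 had 6 against 0 in HPr1AR, which was called, and 5 against 3 in LNCaP, which was not. The promoter and first exon region of STS had 7 reads against 0 in HPr1AR and was called there, but it also names MIR4767 and PUDP. In LNCaP this region had 7 against 4 and was not called. The called STS regions outside the downstream exon thus rest on 6 or 7 reads each.

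SULT2B1, which transfers sulfate to cholesterol and other 3β-hydroxysteroids and so acts opposite to STS, had 3 regions. Its exon at chr19:49102511-49102660 had 4 reads against 5 in HPr1AR and 6 against 5 in LNCaP and was called in neither. An intron region listed in LNCaP, chr19:49066581-49066950, had 10 reads against 2, a read ratio of 3.50 with an interval of 1.27 to 6.73 (adjusted p = 0.00189 by the exact binomial test). The call in this gene therefore came from an intron and from 12 reads.

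AKR1C3, which reduces androstenedione to testosterone, had 9 regions in HPr1AR and 2 in 22Rv1, all but 1 of them in introns. The enriched one was an intron region at chr10:5023601-5026520, with 39 reads against 4 in HPr1AR and a read ratio of 4.48 (interval 3.00 to 6.42, adjusted p = 6.56e-15, exact binomial test). Within it, 22Rv1 listed chr10:5025271-5025430 with 12 reads against 0, a ratio of at least 2.55. Both name AKR1C3 alone. The other regions of HPr1AR were not called, and 7 of those 8 also named AKR1C1 or AKR1C2, near-identical neighbours whose reads cannot be told apart from those of AKR1C3 where the copies match. The annotation used for the tables placed parts of these neighbours inside AKR1C3 introns, whereas the spans of the 3 genes do not overlap in RefSeq GRCh38. The second region of 22Rv1 had 1 read against 8, named AKR1C1 as well and was not called. Whether the enriched stretch belongs to an AKR1C3 transcript was not tested.

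**Figure D2:**
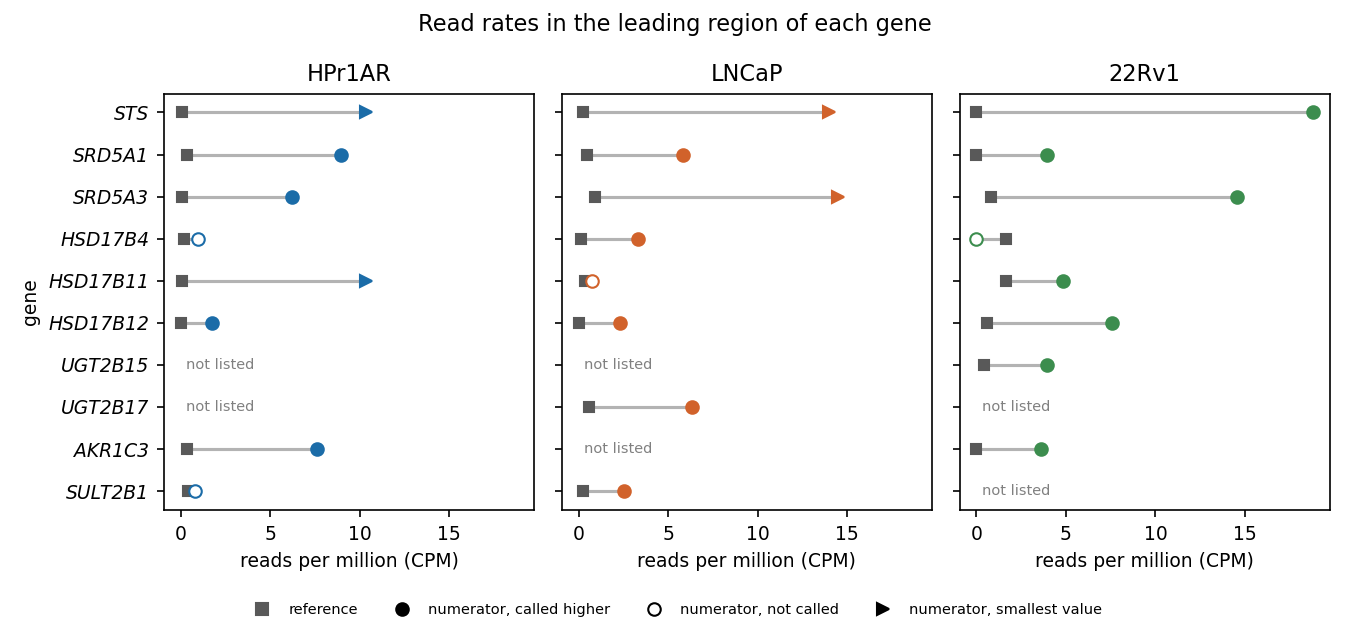
Read rates in CPM in the leading region (smallest adjusted p) of each gene (y axis) for the reference (grey squares) and the numerator (coloured symbols) in each line; filled circles were called higher, open ones were not, and arrowheads are smallest values. SRD5A3 reaches 14.6 CPM and STS 18.8 CPM in 22Rv1 with reference rates of 0.83 and 0, and HSD17B11 stands at 10.3 CPM in HPr1AR against 4.85 CPM in 22Rv1.

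HSD17B4, a peroxisomal enzyme that oxidises oestradiol and also works in fatty acid breakdown, had more regions than any other of the 10 genes, namely 11, 17 and 7 in HPr1AR, LNCaP and 22Rv1. Of these 35 only 2 were called, both in LNCaP and both at the 5′ end. The promoter and first exon region, chr5:118787881-118788430, had 13 reads against 1 in LNCaP, a ratio of 4.88 (interval 2.14 to 10.3, adjusted p = 2.26e-05, exact binomial test). The region after it, in the first intron, had 7 against 1 (adjusted p = 0.00955, exact binomial test). The 5′ region had 5 against 4 in HPr1AR and 7 against 5 in 22Rv1, neither of which was called. With regions matched by any overlap, the LNCaP ratio exceeded that of 22Rv1 by 3.84 on the log2 scale (interval 0.20 to 9.51), with an exact conditional p of 0.0343 and an adjusted p of 1.

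Downstream, the read ratios of HSD17B4 lay mostly near or below 0. They were below 0 in 6 of 11 regions in HPr1AR, 12 of 17 regions in LNCaP and 4 of 7 regions in 22Rv1. The LNCaP count includes an undetermined region of at least 2 reads against 8, whose ratio is a lower bound and need not lie below 0. The exon at chr5:118814521-118814710 had 2 reads against 13 in HPr1AR, 2 against 19 in LNCaP and 1 against 10 in 22Rv1. That at chr5:118866951-118867100 had 1 against 11, 0 against 10 and 0 against 8. The last listed exon had 8 against 14, 13 against 37 and 12 against 9. None of these was called lower, and the smallest adjusted p among regions with a ratio below 0 was 0.0557, in 22Rv1. The authors' deposited table nevertheless marked 49, 42 and 32 of all member regions as up in the 3 lines at an adjusted p under 0.05, beside 96.5%, 95.4% and 99.3% of all regions. The log2 folds in the authors' deposited table set the numerator against the square of the reference and ran from 15.1 to 30.5 in the member regions, so they cannot be read as fold enrichments.

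**Figure D3:**
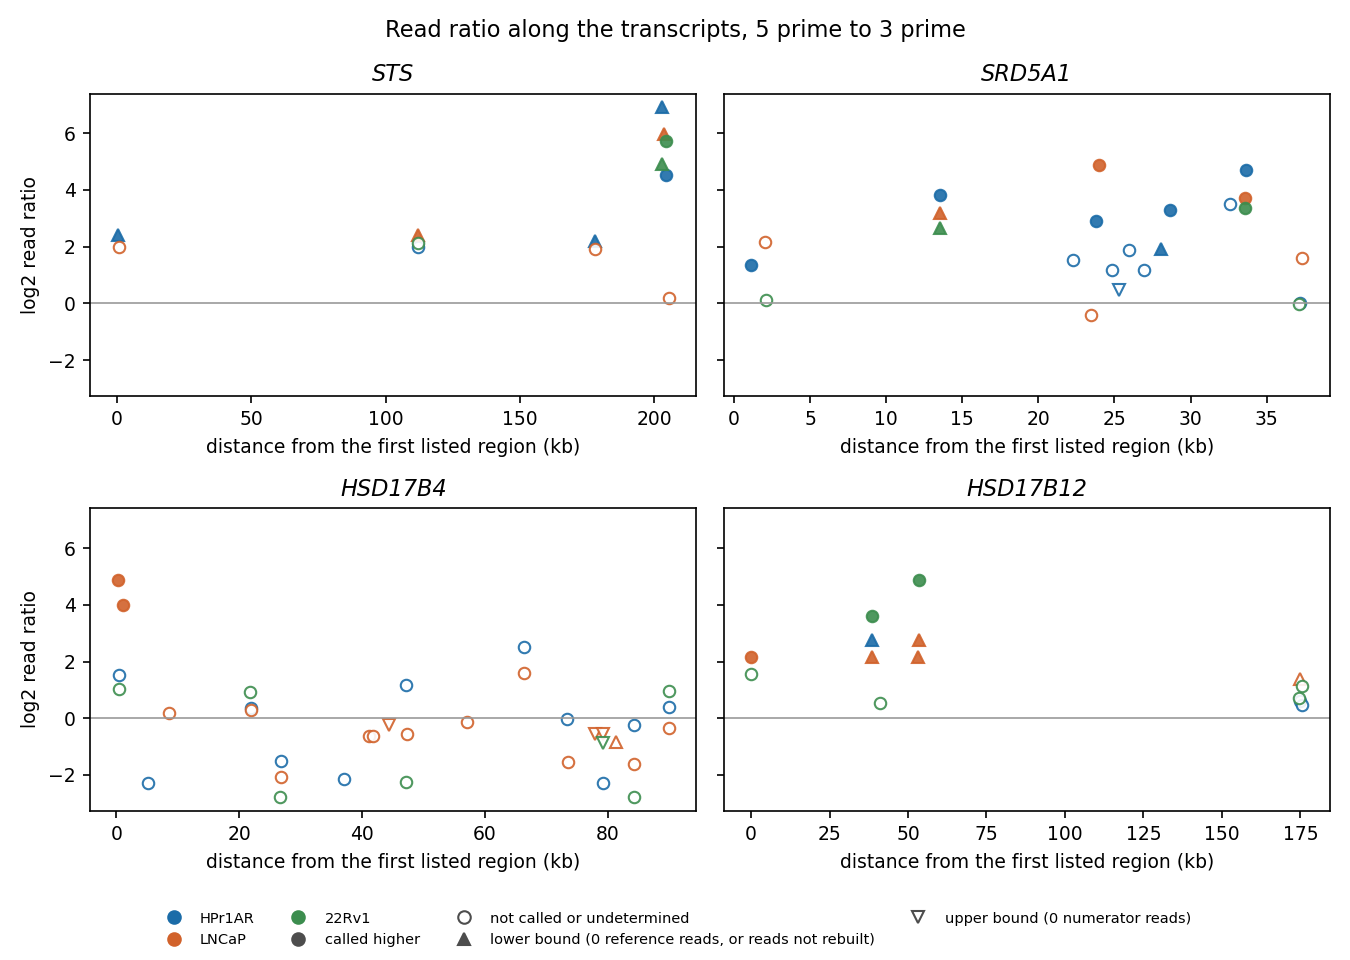
Log2 read ratio (y axis) against distance from the first listed region in kb, 5′ to 3′ (x axis), for STS, SRD5A1, HSD17B4 and HSD17B12, with lines by colour, called regions filled and bounds as triangles. The highest filled points of STS lie at its downstream end, with lower ones upstream in HPr1AR and LNCaP. The filled points of HSD17B4 lie at its start, and those of HSD17B12 in its upstream introns and, in LNCaP, its first exon.

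HSD17B11, which oxidises androstanediol to androsterone and sits on lipid droplets, had 1 region whose counts differed between lines. Its promoter and first exon region, chr4:88312011-88312980, had at least 53 reads against 1 in HPr1AR, 3 against 3 in LNCaP and 16 against 8 in 22Rv1. The ratio was at least 6.92 in HPr1AR (adjusted p = 6.34e-24) and 1.55 in 22Rv1 (interval 0.24 to 2.98, adjusted p = 0.0346), both called by the exact binomial test, and 1.18 in LNCaP, which was not called. A more downstream exon, chr4:88303391-88303520, had 10 reads against 5 in HPr1AR, which was called, and 3 against 7 in 22Rv1, which was not. The other exons had at most 14 reads in the numerator and none was called. The sequence around the HSD17B11 start is the first of the 4 printed above.

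The planned test of differences between lines needed regions that overlap by 50% in both directions and have rebuilt reads, which left out the HPr1AR region of HSD17B11 with its smallest counts. When regions with smallest counts and any overlap were admitted, a choice made after the values were seen, HPr1AR exceeded 22Rv1 there by at least 5.37 on the log2 scale (interval from 2.24), with an exact conditional p of 3.67e-05 and a Benjamini-Hochberg adjusted p of 0.0104. It was the single differing pair of 26 member pairs between these lines, beside 0.636% of all such pairs. Against LNCaP the difference was at least 5.74 (interval from 1.46), with an exact conditional p of 0.00437 and an adjusted p of 0.264, and 0 of 25 member pairs differed, beside 0.777%. Between LNCaP and 22Rv1 0 of 23 differed, beside 0.322%. The compared windows are the representative ones and need not be the same window in both lines.

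HSD17B12, a reductase of very long-chain fatty acid synthesis that can also reduce oestrone to oestradiol, was called mainly in introns and not at its downstream exons. The intron region at chr11:43740751-43741000 had 9 reads against 0 in HPr1AR, 6 against 0 in LNCaP and 25 against 3 in 22Rv1, and it was called in all 3. A second intron stretch, chr11:43755361-43756130, had 20 against 1 in 22Rv1, a ratio of 4.87 (adjusted p = 1.82e-06, exact binomial test). LNCaP listed 2 regions within it, with 6 against 0 and 9 against 0, both called. HPr1AR listed none there. The exon at the downstream end had 17 reads against 15 in 22Rv1 and at least 14 against 12 in LNCaP. The first was not called and the second was undetermined. The other downstream exon regions had 2 against 3 and 3 against 5 in HPr1AR and 6 against 4 in 22Rv1, again without a call. The promoter and first exon region had 12 against 6 in LNCaP, which was called, and 8 against 4 in 22Rv1, which was not, and these ratios of 2.18 and 1.55 were not shown to differ by the exact conditional test (interval of the difference -2.07 to 3.21).

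SRD5A1, which makes dihydrotestosterone from testosterone, had 23 regions, of which 11 were called, and it was enriched at the same exon in every line. The exon at chr5:6645021-6645430 had 25 reads against 4 in HPr1AR, 12 against 0 in LNCaP and 13 against 0 in 22Rv1. The ratios were 3.83 (interval 2.30 to 5.82) in HPr1AR, at least 3.18 in LNCaP and at least 2.66 in 22Rv1. The intron region chr5:6664801-6665860 was also called in all 3 lines, with 46 against 4, 23 against 4 and 7 against 1. Of 10 intron regions of SRD5A1 in HPr1AR 4 were called, among them chr5:6655031-6655880 with 33 reads against 10. LNCaP split this stretch into one region of 3 against 9, not called, and one of 13 against 1, called with a ratio of 4.88 (adjusted p = 2.26e-05, exact binomial test). The exon at the downstream end had 4 reads in the numerator of every line, against 9 (HPr1AR), 3 (LNCaP) and 6 (22Rv1), and was called in none. The promoter and first exon region had 50 against 45 in HPr1AR and was called, but its region there also covers NSUN2. The narrower regions of LNCaP, with 8 against 4, and of 22Rv1, with 3 against 4, name SRD5A1 alone and were not called.

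SRD5A3, named as a 5α-reductase but best known for making dolichol for protein glycosylation, repeated the pattern of STS, with 1 dominant exon at its downstream end. The region chr4:56235991-56237810 had 32 reads against 1 in HPr1AR, at least 57 against 8 in LNCaP and 48 against 4 in 22Rv1. The ratios were 6.19 (interval 3.61 to 11.5), at least 4.01 and 4.13 (2.68 to 6.07), with adjusted p-values of 1.93e-14, 8.26e-20 and 1.95e-13 by the exact binomial test. Between HPr1AR and 22Rv1 the ratios differed by 2.06 (interval -1.38 to 7.72), which is within counting error. The stretch also lies in an intron of the antisense gene SRD5A3-AS1, and the sources used here do not say whether strand was used in the overlap. The other exons of SRD5A3 were not enriched to this degree. Its promoter and first exon region had 2 reads against 7 in HPr1AR, 17 against 14 in LNCaP and 10 against 5 in 22Rv1, and only LNCaP was called, at a ratio of 1.46. A shorter region further downstream, chr4:56238721-56238950, had 9 against 0 in 22Rv1 and was called, while LNCaP had 2 against 1 there. The second exon region, chr4:56225521-56225660, had 3 against 4, 2 against 12 and 4 against 9 and was called in none.

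UGT2B15 and UGT2B17 attach glucuronic acid to dihydrotestosterone and its metabolites and are the main route by which prostate cells dispose of androgens. They are near-identical copies, so reads may have been assigned to either. Each was listed in 1 line, and each had its 2 regions called there. UGT2B17 in LNCaP had 25 reads against 5 in its promoter and first exon region, chr4:69433631-69434230, and 23 against 14 in the exon at the downstream end, chr4:69403061-69403570. The ratios were 3.50 (interval 2.09 to 5.24, adjusted p = 5.17e-08) and 1.89 (0.87 to 2.96, adjusted p = 6.43e-04) by the exact binomial test. UGT2B15 in 22Rv1 had 13 against 2 in its promoter and first exon region, chr4:69536021-69536190, and 7 against 1 in the downstream exon, chr4:69512571-69512720. The ratios were 3.25 (interval 1.10 to 6.44) and 3.35 (0.39 to 8.85). Since neither gene had regions in both lines, the lines could not be compared for them.

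Where regions of different lines overlapped they were joined, which gave 68 stretches over the 10 genes. Of these, 20 were listed in all 3 lines, 14 in 2 and 34 in 1. The stretches called higher in all 3 lines numbered 5, namely the downstream exon of STS, the exon and the intron of SRD5A1, the downstream exon of SRD5A3 and the upstream intron of HSD17B12. Another 10 stretches were listed in all 3 lines and called in none, 6 of them exons of HSD17B4. No share over all genes stands beside these counts of stretches, so they are not shown to be unusual. Under the planned test, 0 of 14 matched member pairs differed between HPr1AR and LNCaP, 0 of 10 between HPr1AR and 22Rv1 and 0 of 8 between LNCaP and 22Rv1, beside 0.256%, 0.234% and 0.232% of all pairs. At an unadjusted exact conditional p under 0.05 there was 1 such pair, the downstream HSD17B11 exon of 10 against 5 in HPr1AR and 3 against 7 in 22Rv1 (p = 0.0496, difference 2.87, interval 0.00 to 5.91). The intervals of the other differences span several log2 units, so the lines are not shown to be alike.

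By position, the regions were split into introns and 4 kinds of exon, according to whether the table named another exon of the same gene within 10000 bp upstream or downstream. Exons with a neighbour on both sides were called in 1 of 23 member regions, beside 28.9% of such regions of all genes in HPr1AR, 26.9% in LNCaP and 32.9% in 22Rv1. Exons with a neighbour upstream only were called in 6 of 26, beside 62.1%, 62.5% and 68.6%. For those with a neighbour downstream only it was 9 of 20, beside 58.0%, 56.6% and 61.6%. Exons with no neighbour were called in 10 of 18, beside 64.9%, 63.0% and 69.1%, and introns in 17 of 41, beside 27.1%, 27.8% and 57.6%. Many exon members come from HSD17B4, and regions of 1 gene are not independent, so these shares describe the members and carry no test.

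**Figure D4:**
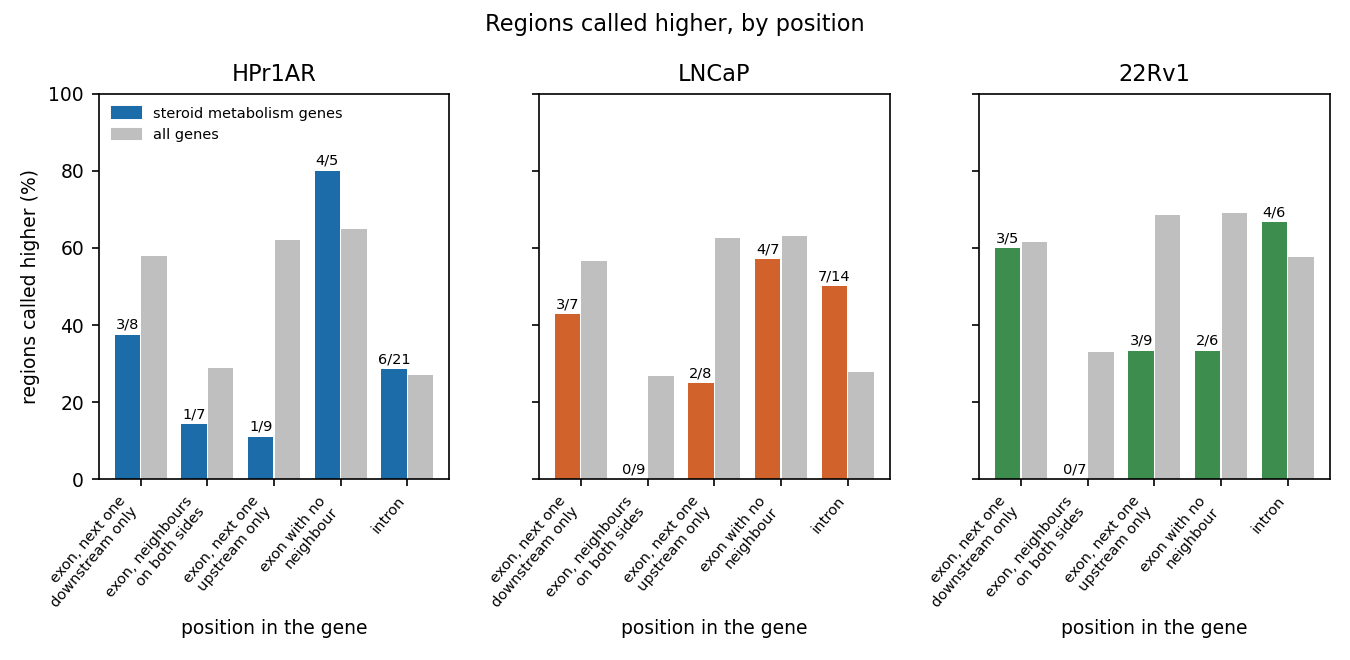
Percentage of regions called higher (y axis) by position in the gene (x axis) for the steroid metabolism genes (coloured bars, with counts above them) and for all genes (grey bars) in each line. Exons with neighbours on both sides were called in 1 of 7 member regions (HPr1AR), 0 of 9 (LNCaP) and 0 of 7 (22Rv1).

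A list of 55 other genes of steroid synthesis, activation, transport and clearance was read for comparison. Of these, 31, 24 and 26 were listed in HPr1AR, LNCaP and 22Rv1, and 28, 24 and 23 had a higher region, beside the 92.4%, 90.2% and 90.4% of all genes. In all 3 lines 18 had a higher region, a count without a share of all genes beside it. Among them, SUMF1, which activates sulfatases such as STS, had most regions called: 18 of 23 (HPr1AR), 12 of 21 (LNCaP) and 13 of 16 (22Rv1). Its leading region, however, lies in an intron of SUMF1 and covers an exon of SETMAR. HSD17B1, which makes oestradiol from oestrone, had 1 region in each line, with at least 55 reads against 8, at least 57 against 10 and at least 44 against 3. HSD11B2, which inactivates cortisol, had 42 against 2, at least 58 against 13 and 44 against 4 in its leading exon region. POR, the electron donor of the microsomal cytochromes P450, had 54 against 21, 55 against 26 and 60 against 21 in its leading exon region. That region also covers the promoter and an exon of TMEM120A, so its reads cannot be assigned to POR alone. Ordered by the largest of their 3 adjusted p-values, the other leading genes were DHRS11, RDH5, SUMF2, SULT1A1, CYP3A5, CYB5R3, FDXR and CYB5A. The leading regions of DHRS11, RDH5, SUMF2, CYP3A5 and FDXR also name other genes, and that of CYP3A5 lies in an intron.

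In a single line 11 genes of this list were listed, 8 of them in HPr1AR. HSD17B2, which oxidises testosterone and oestradiol, had 9 regions in HPr1AR and 7 were called, led by an exon region of 33 reads against 5. HSD17B3, the testosterone-forming enzyme of the testis, had 5 of 7 regions called there, led by an intron region of 21 against 1. DHRS9, a dehydrogenase of retinoids and steroids, had at least 53 reads against 1, and the steroid carrier SLCO2B1 had 32 against 0. STAR and SLCO1B3 had 1 called region each, and HSD11B1 and AKR1C2 had none. UGT2B28 was listed in LNCaP alone, with 12 reads against 0, and UGT2B7 in 22Rv1 alone, with 14 against 1, whereas UGT2B11 of the same family, named after its values were seen, had called regions in both cancer lines, with leading reads of 13 against 1 in LNCaP and 10 against 0 in 22Rv1. SLCO1A2 had 4 called regions in 22Rv1, led by 16 against 0. These are differences in which genes a table lists, which depend on its read counts, and they were not tested between lines. No share of all genes listed in a single line stands beside them.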

How the data were processed

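Labels put the 17 samples into groups by line and antibody. The labels speak of biological triplicates without naming cultures, and no label names a replicate 2 of the 22Rv1 m6A group. The authors deposited 1 table per line of regions made of windows, with a log2 fold, a p-value and an adjusted p-value per region and the genes overlapping it, per the file headers. Which samples entered a table, which pull-down is the numerator and what aligner and test were used is not given in the sources used here. The tables had 0 columns of per-sample values left unused.

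The deposited log2 fold was reproduced by the log2 of the numerator reads, less the doubled log2 of the reference reads, with a small prior added to each count and a shift per table. Constants and depths were fitted per table, and whole reads were found for 93.8% (HPr1AR), 92.5% (LNCaP) and 95.4% (22Rv1) of regions and for 122 of 128 member regions. The largest misfit of the fold among the regions fitted for LNCaP was 0.0207 in log2, above the 0.006 allowed when reads were rebuilt. With the number of windows allowed for, the log of the deposited p-value was matched within 5% in 92 of the 128 member regions, and in 24 of 45 in LNCaP. Other rebuilt regions met a looser limit. In 5 LNCaP member regions more than 1 pair of counts was possible and the nearest was taken. Depths follow from the fitted priors, taken as proportional to depth. Ratios were tested with the exact binomial test, and matched regions of 2 lines with an exact conditional test of the ratio of ratios, both adjusted by Benjamini-Hochberg over all regions or pairs. The script was tested on simulated data.

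Members, the list of 55 genes and the tests were chosen with earlier results of these data known. The text names all members with their leading regions and, from the list, up to 12 genes higher in all lines, by the largest of their 3 adjusted p-values, and up to 12 listed in 1 line. Alternatives were a threshold of 0.01, centring on the median, a minimum rate of 0.862 CPM, exons only, unshared regions, unique count pairs and other matching. Python 3.11.15, numpy 2.4.6, scipy 1.17.1, pandas 2.3.3 and matplotlib 3.10.9 were used.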

Additional observations from a re-analysis of the deposited data

Results flagged for a closer look

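The promoter and first exon region of HSD17B11 differed between HPr1AR, with at least 53 reads against 1, and 22Rv1, with 16 against 8, by at least 5.37 in log2 read ratio (interval from 2.24). The exact conditional test gave an adjusted p of 0.0104 over all pairs when any overlap and regions with smallest counts were admitted, a choice made after the values were seen. The planned matching did not hold this pair, and the spread between samples is not known.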

How the results depend on the processing

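No paired analysis was possible because the tables hold no value per sample, and for the same reason no sample could be left out. The counts of higher member regions (15 in HPr1AR, 16 in LNCaP, 12 in 22Rv1) became 49, 42 and 32 under the authors' deposited adjusted p-values, and 9, 8 and 3 after centring on the median of all regions. With exons only they were 9 in HPr1AR and 9 in LNCaP. Centring left 2 genes with a higher region in 22Rv1, in place of 7, and 13 and 10 genes of the list of 55 in LNCaP and 22Rv1, in place of 24 and 23. With any overlap and smallest counts admitted, chosen after seeing the data, 1 member pair differed between HPr1AR and 22Rv1 in place of 0. Centring turned the ratio of the leading region of SULT2B1 in HPr1AR to -0.35, of HSD17B11 in LNCaP to -0.045 and of HSD17B11 in 22Rv1 to -0.50, and the region of HSD17B4 in 22Rv1 with the largest deposited fold had 1.03 in place of a ratio below 0. Centring also ended the call of the leading regions of SULT2B1 in LNCaP (2.28), SRD5A1 (0.61), HSD17B12 (1.56), UGT2B15 (1.198) and AKR1C3 (0.50) in 22Rv1, and the AKR1C3 region of HPr1AR with the largest deposited fold (1.19) was not called. Whether the depths or the median of all regions is the better reference was not tested. The other counts stayed within 1.5 times their value under the alternatives run. The median member region held 10 reads in HPr1AR and 12 in the other lines over both pull-downs, so that a region not called is not shown to lack m6A.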

Other observations

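Promoter overlaps without an exon or intron lay outside the rule. SRD5A1 had 3 of them, all over NSUN2, with 32 reads against 28 in LNCaP, which was called higher, and 24 against 19 and 4 against 6 in 22Rv1, which were not. HSD17B4 had 1 in LNCaP, chr5:118787451-118787560, with 4 reads against 0 (adjusted p = 0.0467, exact binomial test), just upstream of its called first exon region.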
